A study of Mus musculus with 43 samples.

Results

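Dense clusters of CCCGGG sites that were neither unmethylated nor fully methylated in colonic epithelium were described here across folic acid (FA) diets and across polyps. The members were 252 CCCGGG sites on chromosomes 1 to 19, each with at least 3 other listed sites within 1000 bp and a mean methylation level of 10% to below 50% in the epithelium of mice on 2 mg FA. They were 252 of the 7900 sites in dense surroundings that could be given such a level, where 7274 lay below 10% and 374 at 50% or above, and of 173449 listed sites in all. The level was the mean of the adjusted methylation in those of the 7 libraries of mice on 2 mg FA with at least 20 reads at the site, and at least 4 such libraries were required. The members were therefore selected on the 2 mg FA values, and those values are given as a description only.

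All mice were female Swiss Webster mice that received the carcinogen azoxymethane (AOM) at 7 weeks of age and 4 cycles of 2% dextran sulfate sodium (DSS), which inflames the colon. After the first cycle they were fed chow with FA at 0, 2 or 8 mg/kg for 16 weeks and were killed at 27 weeks of age. Cells were taken by laser microdissection (LMD) from formalin-fixed, paraffin-embedded colon, so each library held the cells of a few small areas, and for some mice the study also describes dissected areas that kept lamina propria. No group was free of AOM and DSS. The first cohort held nondysplastic epithelium of 5 mice on 0 mg FA (0ND), 7 on 2 mg (2ND) and 6 on 8 mg (8ND). The second cohort held nondysplastic epithelium and polypoid lesions of the same mice, namely 6 epithelium and 6 polyp libraries on 0 mg (0ND and 0P) and 6 epithelium and 7 polyp libraries on 8 mg (8ND and 8P), where 1 mouse gave 2 lesions. The cohorts shared 8 mice, so the comparison of 8ND with 0ND was not made in fully separate animals. The sample titles name only non-neoplastic cells in both cohorts, which are called epithelium here. They do not say which libraries kept lamina propria. The cohorts, and polyps and epithelium, may therefore differ in the cells they held, which was not tested.

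Digital restriction enzyme analysis of methylation (DREAM) cuts unmethylated CCCGGG with SmaI and then the methylated remainder with XmaI, and the ends of the sequenced fragments tell the states apart. The fraction of methylated reads was then corrected for each library with methylation standards that had been added to the DNA. The libraries held 1488920 to 16923453 reads at sites, and between 126 and 251 of the members had at least 20 reads in a given library. The standards took 1.78% to 77.4% of the reads, and the 0P library of mouse 1805 had the highest share. The 100 most covered sites took 8% or more of the reads in 6 epithelium libraries of the second cohort, 3 from each diet.

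CpG islands are stretches of DNA rich in CpG that overlap most gene starts and are usually free of methylation in normal cells, while CpG elsewhere in the genome is mostly methylated. Dense sites of intermediate level can hold a mixture of methylated and unmethylated copies, as at imprinted genes, where the copy from 1 parent is methylated, or at the edges of islands. In colon tumors, islands often gain methylation, and methyl groups for this reaction come from the folate cycle.

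Stretches of 9 clusters are given first, because the comparisons below turn on their sites or because they held the most members. All are RefSeq GRCm38 reference sequence, plus strand, 5′ to 3′. Capitals mark the CCCGGG sites that were measured. The clusters were placed in GRCm38 by the spacing of their sites, since the deposited positions are in mm9.
Peg12 (coding sequence, chr7:62463896-62464171): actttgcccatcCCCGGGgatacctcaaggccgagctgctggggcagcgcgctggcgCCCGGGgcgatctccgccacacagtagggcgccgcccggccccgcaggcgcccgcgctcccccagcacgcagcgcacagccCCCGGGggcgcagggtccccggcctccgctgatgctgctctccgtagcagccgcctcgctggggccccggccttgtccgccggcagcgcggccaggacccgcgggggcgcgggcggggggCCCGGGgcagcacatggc
Gnas (coding sequence, chr2:174299414-174299668): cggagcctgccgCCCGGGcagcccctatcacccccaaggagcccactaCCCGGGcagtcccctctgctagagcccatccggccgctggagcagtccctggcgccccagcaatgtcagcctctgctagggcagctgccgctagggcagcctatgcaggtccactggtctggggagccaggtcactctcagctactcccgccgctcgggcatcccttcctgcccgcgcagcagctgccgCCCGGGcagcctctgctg
Sema6b (coding sequence, chr17:56124079-56124219): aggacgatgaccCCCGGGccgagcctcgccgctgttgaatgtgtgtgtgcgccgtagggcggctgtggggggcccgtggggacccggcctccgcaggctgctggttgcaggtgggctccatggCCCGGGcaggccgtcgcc
Gm26550 (noncoding exon, chr7:24636484-24636549): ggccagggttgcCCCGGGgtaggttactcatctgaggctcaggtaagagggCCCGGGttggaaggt
Crocc (intron into coding sequence, chr4:141034270-141034476): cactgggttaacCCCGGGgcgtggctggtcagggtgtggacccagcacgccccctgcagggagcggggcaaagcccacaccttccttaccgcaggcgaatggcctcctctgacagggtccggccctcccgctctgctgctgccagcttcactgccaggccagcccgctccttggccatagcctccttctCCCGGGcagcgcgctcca
Ppard (intron, chr17:28285834-28286038): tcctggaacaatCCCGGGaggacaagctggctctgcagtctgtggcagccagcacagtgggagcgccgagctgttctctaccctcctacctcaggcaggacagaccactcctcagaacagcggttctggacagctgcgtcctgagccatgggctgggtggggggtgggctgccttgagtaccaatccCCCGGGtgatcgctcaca
Ctu2 (intron into coding sequence, chr8:122480826-122480945): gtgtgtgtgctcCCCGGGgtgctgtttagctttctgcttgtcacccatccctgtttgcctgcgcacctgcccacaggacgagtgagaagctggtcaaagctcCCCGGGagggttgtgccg
Grasp (intron into coding sequence, chr15:101231483-101231611): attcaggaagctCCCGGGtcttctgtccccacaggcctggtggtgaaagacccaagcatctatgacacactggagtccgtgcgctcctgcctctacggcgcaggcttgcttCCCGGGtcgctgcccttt
Mir9-3hg (noncoding exon, chr7:79515348-79515466): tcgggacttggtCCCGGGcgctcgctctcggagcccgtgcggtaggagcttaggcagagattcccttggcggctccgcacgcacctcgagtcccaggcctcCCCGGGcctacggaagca

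In the 2ND libraries the 4 marked sites of Peg12 had mean levels of 19.3%, 37.5%, 17.3% and 29.5%, in the order of the sequence. The 3 marked sites of Gnas had 65.0%, 34.6% and 49.1%, so the first of them lay above the range that defined the members. The marked sites of Grasp, 99 bp apart, had 24.7% and 93.2%. Those of Crocc had 18.9% and 21.1%, and the next sites of that cluster had 70.9% and 94.5%. The stretches thus include a cluster that was intermediate throughout and a member beside a fully methylated neighbor.

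The members fell into 167 clusters, taken as unbroken runs of listed sites no more than 1000 bp apart. Of these, 110 clusters had 1 member, 40 had 2 and 17 had 3 or more. The clusters spanned a median of 1002 bp (245 to 4471 bp) and held 869 listed sites, of which 682 had a 2ND level. Beside the 252 members, 315 of these sites lay below 10% and 92 at 50% or above. In 102 clusters the members lay among sites below 10% and none at 50% or above, in 40 clusters the reverse held, 6 had neighbors of both kinds and 19 of neither. Most clusters with a member thus had unmethylated and no highly methylated neighbors.

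The 2ND level of the members had quartiles of 14.2%, 21.6% and 33.3% and ranged from 10.0% to 49.6%. The lowest part of the range held most of them, with 118 members from 10% to below 20%, 82 from 20% to below 35% and 52 from 35% to below 50%. Just inside the lower end were sites at Pcdh15 (10.0%), near Acvr1b (10.1%) and at Vwc2 (10.2%), and just outside it sites at Gm11476 (9.97%), Adamts3 (9.88%) and Agap2 (9.87%). A site called near a gene lies between genes, and the name is that of the nearest coding gene at any distance. Just inside the upper end were sites at Syne2 (49.6%), Gdpd5 (49.4%) and Gnas (49.1%), and just outside it sites near Sall3 (50.3%), at Adgrl1 (50.4%) and near Esrrg (50.7%). The limits therefore cut through a continuous range of levels. With the median of the 2ND libraries in place of the mean, 241 sites met the rule and 230 of them were members.

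The sequence around the members differed from that around the other dense sites. The ratio of observed to expected CpG in the 500 bp around a site had a median of 0.488 for the members, against 0.838 for unmethylated dense sites and 0.401 for methylated dense sites, and 0.241 for sites of the same level with no such density. The GC content was 60.3%, against 70.1%, 56.5% and 49.1%. Gene starts lay within 1 kb of 119 members (47.2%), against 91.9% of unmethylated dense sites, 12.6% of methylated dense sites and 12.0% of the isolated sites. The members thus stood between the unmethylated and the methylated dense sites in all 3 measures. The rule did not use these measures directly. It did require other CCCGGG sites nearby, and each of these holds a CpG. The contrast with isolated sites in CpG ratio and GC content is therefore partly set by the rule.

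By gene model, 70 members were in coding sequence, 83 in introns, 21 in noncoding exons, 16 in 5′ UTRs, 12 in 3′ UTRs, 10 within 1 kb before a start and 40 between genes. Coding sequence held 27.8% of the members and 12.2% of the unmethylated dense sites, 21.5% of the methylated dense sites and 4.67% of the isolated sites. Repeats marked in the reference held 1.19% of the members, like 1.18% of the unmethylated dense sites, and 29.6% of the methylated dense sites. These shares are descriptions, because sites of 1 cluster share their surroundings. The plot of CpG content and gene place shows that the members overlapped both other dense classes.

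**Figure D1:**
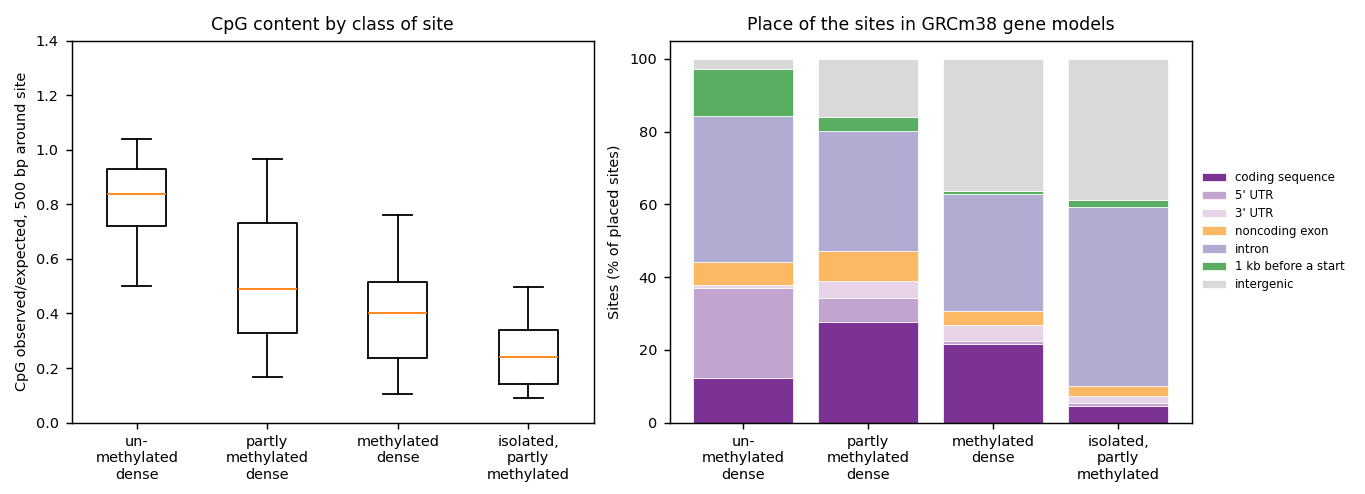
CpG content and gene place of the members and of 3 other classes of site. The left panel gives the observed to expected CpG ratio in 500 bp around a site, with the box from the first to the third quartile, the line at the median and the whiskers from the 5th to the 95th percentile, and the right panel gives the share of sites (%) in each kind of gene model feature. The members, second in both panels, had a median ratio of 0.488 between 0.838 and 0.401 for the other dense classes, and 27.8% of them were in coding sequence.

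Levels varied within a cluster and between libraries. Members and other measured sites of the clusters up to 100 bp apart differed by a median of 12.4 percentage points in 2ND level (65 pairs), those 101 to 250 bp apart by 11.1 (150 pairs), those 251 to 500 bp apart by 13.7 (178 pairs) and those 501 to 1000 bp apart by 18.5 (205 pairs). Over the 18 epithelium libraries of the first cohort, with the diets pooled, the 135 members with at least 20 reads in each had a median SD of 7.84 percentage points. Binomial counting alone was put at 3.29. This takes reads as independent and gives values of exactly 0 practically no error, so it is a low estimate. The median SD between libraries was 0.27 for unmethylated dense sites and 4.92 for methylated dense sites. It was 9.16 for the 20 isolated sites of the same level that were covered in all these libraries. The deviations of 2 members of the same cluster from their group means correlated across these 18 libraries with a median r of 0.49 (60 pairs), and those of members of different clusters with a median r of 0.12 (8985 pairs). Neighboring sites share fragments, libraries and depth, so these correlations are descriptions.

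The members with the least spread over the 18 libraries were in Stard10 (SD 3.15), a phospholipid transfer protein gene, in Gli2 (3.56), a transcription factor gene of Hedgehog signaling, and in C030037D09Rik (3.71). The widest spread was at Fscn1 (15.4), which encodes an actin-bundling protein, and at sites near Eef2kmt (14.8) and near Fabp6 (14.0), the gene of the ileal bile acid binding protein. The 3 sites of least spread had a median of 591 to 654 reads per library and the 3 of widest spread 74 to 190, where the members as a whole had 111 (quartiles 35 and 253.5). In 2ND the 3 sites of least spread had means of 10.2%, 12.1% and 18.5%, and the 3 of widest spread 43.0%, 43.9% and 28.3%. The SD also pools the diets, and the site near Fabp6 had means of 12.2% in 0ND, 28.3% in 2ND and 12.3% in 8ND. The parts of depth, level and diet in the spread were not tested.

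Peg12, an intronless imprinted gene expressed from the paternal copy, held the most members in 1 cluster, with all 6 of its listed sites at chr7:69608505-69609248 (mm9). Their 2ND levels ran from 13.5% to 37.5%, and 5 of the 6 were in the coding sequence. The median over the cluster in single libraries was 13.6% to 37.2% in 0ND of the first cohort, 15.3% to 34.9% in 2ND and 14.2% to 31.7% in 8ND. In the second cohort it was 3.53% to 28.9% in 0ND, 0.995% to 33.9% in 0P, 5.82% to 36.8% in 8ND and 11.7% to 44.4% in 8P. The groups overlapped throughout, and none of the Peg12 members that could be tested was called in any comparison.

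Gnas, the gene of the stimulatory G protein alpha subunit, lies in an imprinted domain, and its cluster at chr2:174123795-174125768 (mm9) held 8 listed sites. Of these, 4 were members (31.0% to 49.1%) and 4 were at 58.7% to 70.6% in 2ND. A pair of them 9 bp apart had 31.0% and 70.6%. The median over the cluster was 31.4% to 66.5% in 42 of the 43 libraries. In the 0P library of mouse 1805 the 7 sites with enough reads were at 0.0% to 1.08%, with 33 to 192 reads each, while the epithelium of the same mouse had 21.7% to 92.5% over 6 sites (median 65.2%). The Peg12 median was also lowest in that 0P library (0.995%, next lowest 3.53%). It was the library with 77.4% of its reads on the standards, and the part of this in the low values was not tested.

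The transmembrane semaphorins Sema6b and Sema6c, members of an axon guidance family, held the next largest clusters of members. At Sema6b all 5 listed sites were members, from the 3′ UTR (40.2% and 39.0% in 2ND) into the coding sequence (26.2%, 31.8% and 13.7%). At Sema6c 5 of 7 listed sites were members, and the level was 40.0% at the first site, 21.8%, 12.3% and 15.7% at the following ones, 4.67% and 3.63% at sites in the 3′ UTR below the range, and 11.6% at the last. A cluster of 5 sites shared by Gm26550, a noncoding gene, and Lypd3, the gene of a cell surface protein, held 4 members at 16.1% to 22.7% and 1 site at 9.82%. The plot of clusters by position shows these profiles.

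**Figure D2:**
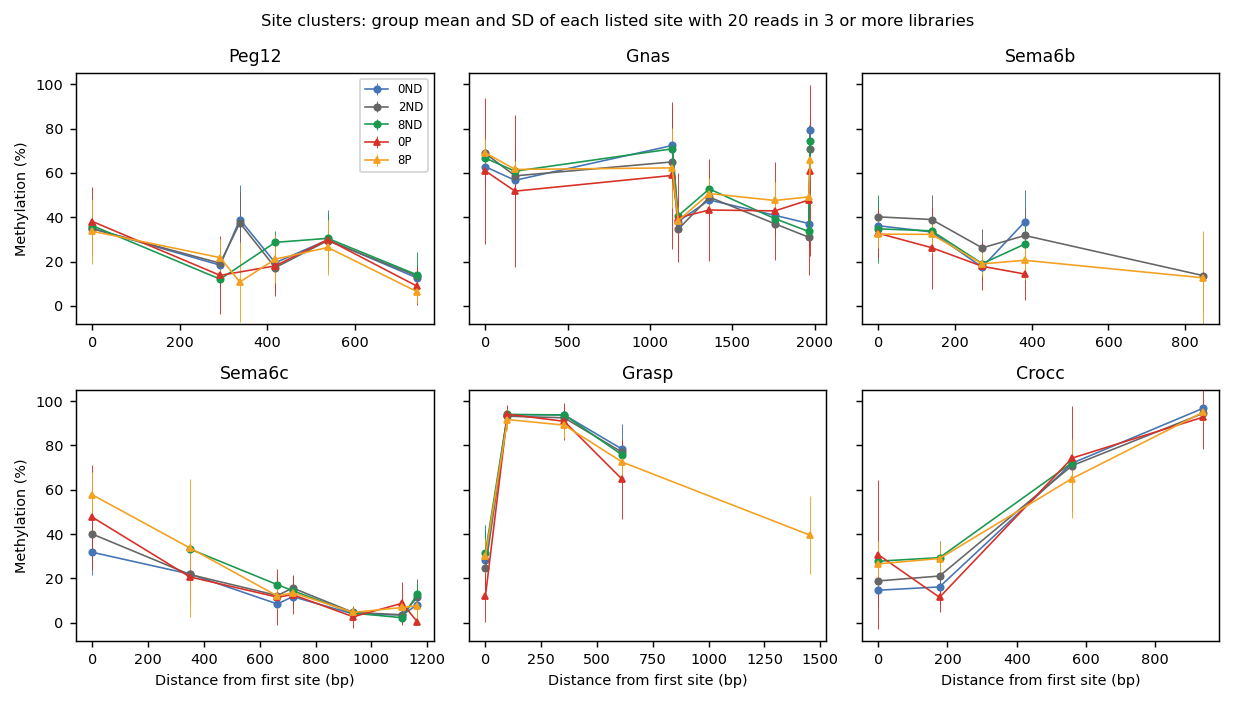
Methylation (%, y axis) of every measured site in 6 clusters against distance from the first listed site (bp, x axis). Points and bars are the group mean and SD for sites with at least 20 reads in 3 or more libraries, with 0ND, 2ND and 8ND from the first cohort and 0P and 8P from the second. Peg12, Sema6b and Sema6c lay mostly below 60%, while the Grasp cluster went from 24.7% to 93.2% (2ND) within 99 bp and the Crocc cluster from 18.9% to 94.5%.

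Averaged over the members, the diets differed little. Over the 135 members covered in all first-cohort libraries, 0ND had 22.7% ± 2.9 (SD, n = 5), with libraries at 24.7%, 22.6%, 19.9%, 26.4% and 19.8%. In the same cohort 2ND had 24.1% ± 1.34 (n = 7, lowest 22.4%, median 24.2%, highest 26.7%) and 8ND had 22.9% ± 3.56 (n = 6, lowest 16.1%, median 23.4%, highest 26.2%). The 2ND values chose the members and are not compared. The 0ND and 8ND ranges overlapped. Before the correction with standards the same means were 12.4%, 14.3% and 11.6%, since the correction raised first-cohort values.

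Over the 79 members covered in all second-cohort libraries, 0ND had 19.4% ± 1.56 (n = 6, lowest 16.5%, median 19.5%, highest 21.0%), 0P 17.1% ± 2.24 (n = 6, 14.0%, 17.8% and 19.4%), 8ND 18.7% ± 3.49 (n = 6, 14.3%, 18.4% and 23.8%) and 8P 20.9% ± 2.53 (n = 7, 16.1%, 20.8% and 23.8%). Within mice on 0 mg, the polyp was below the epithelium in 6 of 6 mice, with differences from −7.04 to −0.22 percentage points. Within mice on 8 mg it was above in 4 of 6, with differences from −1.44 to 7.6. On uncorrected values the polyp was above the epithelium in 3 of 6 mice on each diet, so the count on 0 mg depended on the correction. The polyp libraries on 0 mg also had high shares of reads on standards (32.6% to 77.4%, against 6.98% to 52.7% in 0ND and 8.8% to 40.3% in 8P), and the part of this in the means was not tested.

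**Figure D3:**
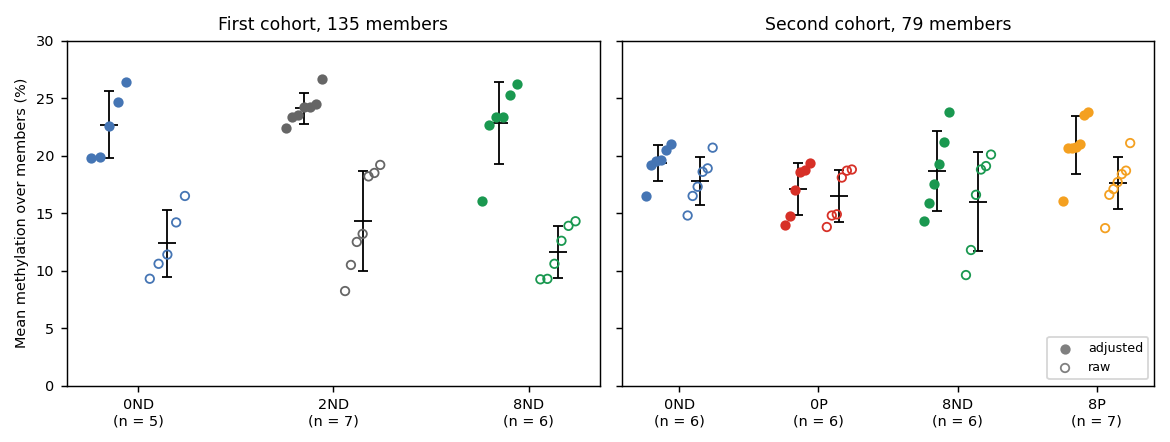
Mean methylation over the members (%, y axis) in each library, by group (x axis), for the first cohort (135 members) and the second (79 members). Filled points are corrected and open points uncorrected values, and bars give the group mean and SD. The corrected group means lay between 22.7% and 24.1% in the first cohort and between 17.1% and 20.9% in the second, and the libraries of the groups overlapped.

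Single sites were then compared between groups. A site was tested where every library of both groups had at least 20 reads, and was called where a two-sided equal-variance test of the adjusted percentages gave an unadjusted p under 0.05 and the means differed by more than 5 percentage points. Both thresholds are those of the study, while equal variances and the use of the adjusted percentages were chosen here. P-values were also adjusted by Benjamini-Hochberg over all tested sites. No member had an adjusted p under 0.05 in any of the 5 comparisons below, by this test, by limma or by a quasi-binomial model, while 17, 1, 11, 14 and 22 members had an unadjusted p under 0.05 by the first. Members called below are therefore candidates by the study's thresholds and not after adjustment. In all, 52 of the 252 members were called in at least 1 comparison, where not every member could be tested. The share of all sites called at least once was not counted, so this number stands without a background. Up to 56.0% of the tested members differed by over 5 percentage points in a comparison, against 0.36% to 1.62% of unmethylated dense sites. Those sites make up much of the background, so the calls are set beside those of methylated dense sites too. The median difference over all sites is held near 0 in the same way, as autosomal sites with a 2ND level had a median level of 0.459%. Median differences of methylated dense sites are not given. Nor are the calls of isolated sites of the same level, of which 20 were covered in all first-cohort libraries.

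**Figure D4:**
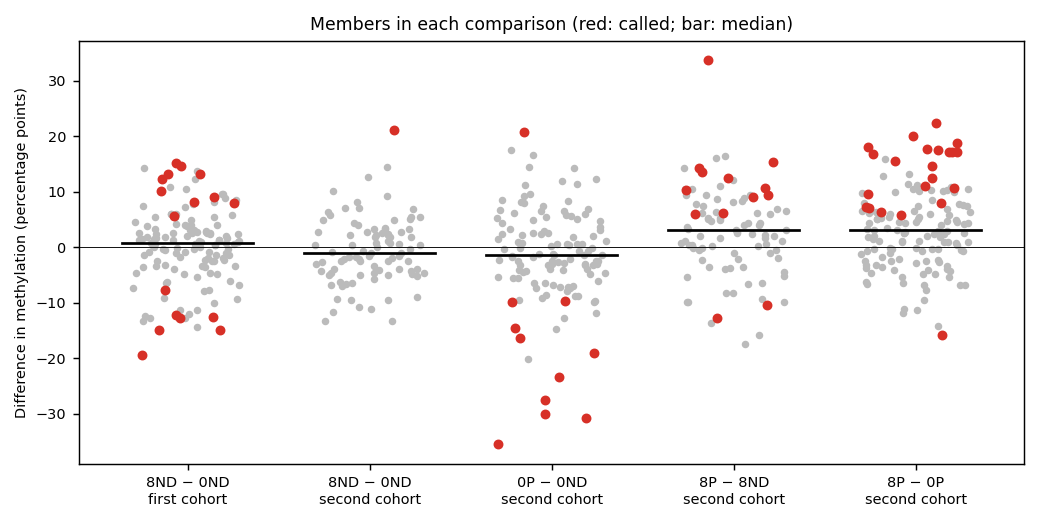
Difference in methylation between groups (percentage points, y axis) for each tested member in the 5 comparisons (x axis). Red points are members called by the thresholds of the study, grey points the others, and the black bar is the median of the tested members. The medians were 0.82, −0.96, −1.38, 3.11 and 3.11 from left to right, and called members lay above 0 in both comparisons with 8P except for 3 sites.

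The first comparison asked how epithelium of the first cohort differed between 8 and 0 mg FA. Sites at Crocc, Ppard and Agap2 were called higher on 8 mg and sites at Gadd45b, Fbxo41 and near Eef2kmt lower. Of the 136 members that could be tested, 17 in 14 clusters were called (12.5%), 10 higher and 7 lower. Over all 13475 tested sites 4.42% were called, 0.594% higher and 3.82% lower, and of the methylated dense sites 14 of 146 (9.59%), 13 of them lower. The median difference over the members was 0.82 percentage points, against 0.0 over all tested sites. The balance of directions depended on the scale, with 14 called and 6 of them higher on uncorrected values, and 39 called and 29 higher by the quasi-binomial model.

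Crocc encodes rootletin, the structural protein of the ciliary rootlet, and both of its members were called. At the first, in an intron, the 0ND libraries had 19.8%, 14.6%, 14.5%, 2.89% and 21.5%, and the 8ND libraries had 22.1% at the lowest, 26.9% at the median and 35.7% at the highest. The groups did not overlap. The difference was 13.12 percentage points (SE 3.83, adjusted p = 0.525), and on uncorrected values it was 5.87 and no longer called. At the second, in coding sequence 177 bp away, the 0ND libraries had 27.8%, 14.2%, 13.6%, 2.73% and 22.7% and the 8ND libraries 17.9% to 38.5% (median 28.4%), with a difference of 13.17 (SE 5.17, adjusted p = 0.795). Here the groups overlapped, and leaving out any of 5 single libraries ended the call, among them the lowest 0ND library (9.79 without it).

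Ppard encodes a lipid-sensing nuclear receptor, and both of its members, in an intron, were called higher. At the first the 0ND libraries had 11.9%, 11.5%, 7.19%, 19.3% and 8.22%, and 8ND 16.2% to 28.6% (median 21.9%), a difference of 10.21 (SE 2.77, adjusted p = 0.478). At the second 0ND had 20.5%, 15.3%, 10.8%, 26.1% and 12.1% and 8ND 23.8% to 46.4% (median 29.8%), a difference of 14.6 (SE 4.43, adjusted p = 0.538). At both sites the same mouse was the only 0ND mouse inside the 8ND range, and it was the mouse with the lowest 0ND values at Crocc. These sites had 140 or more reads in every library.

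Agap2 encodes a GTPase-activating protein of Arf and had 5 members in 2 clusters, of which 3 could be tested. The tested site in coding sequence was called, with the smallest adjusted p among the members. The 0ND libraries had 9.18%, 8.05%, 8.32%, 8.9% and 11.0%, and the 8ND libraries 12.6% to 28.2% (median 22.5%), without overlap. The difference was 12.27 (SE 2.61, adjusted p = 0.327). The 2 tested sites in introns of Agap2 differed by 5.41 and 9.69 and were not called. Only this site and the first Crocc site were called without overlap of the groups. The share of all tested sites called without overlap was not set beside such counts, here or in the comparisons below. They are therefore descriptions of single sites. Other members called higher were at Adgrg6 (15.24), Adamts4 (9.0), Lypd3 (8.02), Tnxb (8.08) and Fam83g (5.72). Those called lower were at a pair of sites in Bcar3 (−7.66 and −12.82), at Gadd45b (−12.16), a stress-induced gene, at Fbxo41 (−14.92), and near Tmem174 (−12.56), Mapk8ip2 (−15.0) and Eef2kmt (−19.36). Of the 17 called members, 9 were called whichever single library was left out. The share of all called sites kept in this way is not set beside such counts, here or in the comparisons below. They therefore have no background.

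By position, the 66 tested members within 1 kb of a gene start had 5 calls, all higher (7.58%), and the 70 farther away had 12 calls, 5 higher (7.14%) and 7 lower (10.0%). Over all tested sites placed in the genome, 0.259% within 1 kb of a start were called higher and 0.797% lower, against 1.45% and 11.5% of those farther away, so calls lower were rarer near starts in the background too. The median difference over the members was 0.86 near starts and 0.69 farther away, and whether the places differ was not tested.

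The same diets in the second cohort gave 1 called member of 89 tested (1.12%), where 1.46% of all tested sites were called, 1.31% lower and 0.145% higher, and of the methylated dense sites 5 of 113 (4.42%), 3 of them lower. It was a site in an intron of Sgcz, the gene of zeta-sarcoglycan, higher on 8 mg. The 0ND libraries had 0.0% to 27.0% (median 12.1%) and the 8ND libraries 3.46% to 63.1% (median 35.2%), and they overlapped. The difference was 21.07 (SE 9.15, adjusted p = 0.99). Leaving out any of 9 of the 12 libraries ended this call. The count itself ran from 0 to 7 with 1 library left out, highest without epithelium library 1856 (8ND, all 7 lower), and it was 6 without the libraries whose top 100 sites took 8% or more of the reads. In the first cohort the same site differed by 4.16 (SE 8.27), with 0ND at 9.0% to 46.2% and 8ND at 3.63% to 38.2%.

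Of the 17 members called in the first cohort, 9 could be tested in the second and none of these was called there. The 7 of them called higher in the first cohort were all lower on 8 mg in the second, by differences from −11.19 (Lypd3) to −0.6 (Adamts4). Those at Adamts4 and Fam83g (−0.85) were close to no difference. The 2 called lower were lower again. The second-cohort difference between 8ND and 0ND was −4.72 (SE 8.47) at the first Crocc site and −10.77 (SE 6.53) at Agap2, where the first cohort had 13.12 and 12.27. It was −13.33 (SE 7.3) near Eef2kmt and −9.28 near Tmem174, where the first cohort had −19.36 and −12.56. The other 8, namely the second Crocc site, both Ppard and both Bcar3 sites and those at Fbxo41, Gadd45b and near Mapk8ip2, had fewer than 20 reads in 1 or more libraries. For 8 mice with epithelium in both cohorts, the mean over 72 members changed by −5.27 to 4.87 percentage points between cohorts, and the levels of a mouse correlated across these members with its own other library (median r 0.63) about as with those of other mice on either diet (median r 0.62, 56 pairs), where all these pairs share the differences in level between sites. The spread of a member within a group was also wider in 8ND of the second cohort (median SD 11.2) than of the first (7.52), and 18.2% of member values there were exactly 0, against 7.38%. Depth moved with this, at a median of 86.0 against 153.0 reads per value, and its part was not tested.

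Polyps of mice on 0 mg FA were compared with their epithelium next. Sites at Ctu2, Sema6b, Grasp and Crocc were called lower in polyps, with differences from −35.54 to −23.47 percentage points, and 1 site at Itgb4 higher. Of 121 members tested, 11 in 10 clusters were called (9.09%), 10 lower and 1 higher. Over all 11109 tested sites 5.37% were called, 4.79% lower and 0.576% higher, and of the methylated dense sites 21 of 139 (15.1%), 17 of them lower. The median difference over members was −1.38. On uncorrected values 9 were called, 7 lower, and with the mouse as a block in limma 14 were called, 3 of them higher.

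Ctu2 encodes a subunit of the enzyme that thiolates wobble uridines of transfer RNAs, and its member lies in coding sequence. The 0ND libraries had 50.1% to 76.6% (median 63.6%) and the 0P libraries 2.87% to 46.7% (median 26.0%). All polyps lay below all epithelium samples, with a difference of −35.54 (SE 7.83, adjusted p = 0.138). The polyp of mouse 1805 was the lowest, and the difference was −30.62 without it. In the first cohort this site had 23.4% to 60.7% in 2ND, the values that made it a member, and 57.5%, 69.6%, 53.3% and 61.8% in the 4 libraries of 0ND with enough reads.

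Grasp encodes a receptor scaffold protein, and its member lies in an intron. The 0ND libraries had 29.8% to 63.0% (median 37.0%) and the 0P libraries 1.23% to 27.7% (median 8.2%), with no overlap and a difference of −29.99 (SE 7.37, adjusted p = 0.211). The fully methylated site 99 bp away is drawn with it in the plot of clusters by position. The second Crocc member was the third site without overlap, at 24.5% to 57.9% (median 38.0%) in 0ND and 0.0% to 16.8% (median 14.6%) in 0P, a difference of −27.44 (SE 5.85, adjusted p = 0.121). At the first Crocc member, 177 bp away, 0P ran from 6.39% to 97.8% and the difference was −8.71 (SE 15.4). The 0P library of mouse 1805 had 97.8% at the first site and 0.0% at the second, on 43 and 44 reads.

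At Sema6b the 3′ UTR sites were called and the coding sites were not. The first site went from 34.3% to 100.0% in 0ND (median 63.1%) to 16.6% to 51.8% in 0P (median 32.0%), a difference of −30.7 (SE 9.8, adjusted p = 0.414). The second had 41.0% to 75.8% and 0.0% to 50.9%, a difference of −23.47 (SE 9.24, adjusted p = 0.665), which was not called with the mouse as a block or without either library of mouse 1805 (−18.26 and −18.2). Without the 3 0ND libraries whose top 100 sites took 8% or more of the reads, neither was called (−18.76 and −18.86). The coding sites differed by −4.1 (SE 4.69) and −6.82 (SE 5.72). First-cohort 0ND had 25.4% to 46.2% (mean 36.2%) at the first 3′ UTR site and 19.7% to 45.1% (mean 33.4%) at the second. These ranges lay inside those of 0P, whose means were 32.8% and 26.3%, so the calls rest on the second-cohort epithelium.

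The remaining members called lower in 0P were at Fbxo41 (−19.04), C030037D09Rik (−14.56), Stard10 (−9.87) and Syne2 (−9.73), and near Fam19a5 (−16.39). Itgb4, the gene of the hemidesmosome integrin beta 4 chain, was higher (20.8). Of the 11 called members, 7 were called whichever library was left out. Members within 1 kb of a start had 3 calls in 59 tested, all lower (5.08%), and the others 8 in 62, of which 7 were lower (11.3%). Over all tested sites 1.04% were called lower within 1 kb of a start and 13.8% farther away. Exact zeros made up 19.8% of member values in 0P and 10.9% in 0ND.

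Polyps of mice on 8 mg FA differed from their epithelium in the other direction at most called members. Sites near Olfr444 and at Mir9-3hg, E2f6 and Gm26550 were called higher in polyps. Of 91 members tested, 13 in 12 clusters were called (14.3%), 11 higher and 2 lower. Over all 9969 tested sites 5.13% were called, 1.63% higher and 3.5% lower. Among the methylated dense sites 20 of 115 (17.4%) were called, all lower. The median difference over the members was 3.11, against 0.04 over all sites. The count ran from 5 without polyp library 1841 to 24 without epithelium library 1856, and 4 members were called whichever library was left out.

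The site near Olfr444, an olfactory receptor gene whose start lies 53130 bp away, had the widest difference. The 8P libraries had 75.8% to 94.3% (median 88.8%) and the 8ND libraries 33.2% to 92.2% (median 45.8%), where 5 of 6 epithelium libraries lay at or below 64.8% and 1 within the polyp range. The difference was 33.76 (SE 8.75, adjusted p = 0.232). The 0P libraries were too shallow to be tested there, and the 3 with 20 reads had 90.5%, 98.0% and 96.3%, above the 44.4% to 59.1% of 0ND. Epithelium of the first cohort had 22.9% to 60.0% in all diets together. The site lies between genes, 116 bp from a site at 96.8% in 2ND.

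Mir9-3hg, the host transcript of the microRNA miR-9-3, had 3 members, of which 2 could be tested and were called. At the stronger, 89 bp from the other, the 8P libraries had 9.11% to 38.9% (median 26.2%) and the 8ND libraries 0.0% to 20.6% (median 7.64%). The groups overlapped, and the difference was 15.45 (SE 4.92, adjusted p = 0.394). At the other the groups had 6.57% to 21.2% and 0.0% to 19.4%, a difference of 9.41 (SE 3.68, adjusted p = 0.525). This second call was lost with the mouse as a block, by the quasi-binomial model and without any of 5 single libraries. Without the 3 8ND libraries whose top 100 sites took 8% or more of the reads, the differences were 11.98 and 6.5 and neither was called. First-cohort 8ND had means of 15.1% and 9.48% at these sites. These lay between second-cohort 8ND (8.57% and 4.87%) and 8P (24.0% and 14.3%).

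Further members called higher in 8P were at Gm26550 (14.3), E2f6 (13.63), a transcriptional repressor of the E2F family, Agap2 (10.6), Trhde (10.26), Pcdh15 (9.15), Zfp703 (6.25) and Pcdh9 (6.03), and near Tmem174 (12.41). Those called lower were at Hmcn2 (−10.42) and near Fam19a5 (−12.8). All 9 called members within 1 kb of a gene start (49 tested) were higher (18.4%), and of the 4 farther away (42 tested) 2 were higher and 2 lower (4.76% each). Over all tested sites 0.961% within 1 kb of a start were called higher and 0.481% lower, against 3.27% and 10.9% farther away. The difference between the places was not tested. Exact zeros made up 6.35% of member values in 8P and 18.2% in 8ND, and depth was 216.0 against 86.0 reads, so a lower level and a shallower library went together in 8ND. The part of depth was not tested.

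Polyps were then compared between diets. Sites at Crmp1, Nsd1, Cdx1, Grasp, Mir9-3hg, Crocc, Kremen2 and 14 others were called higher in 8P than in 0P, and a site before Mpped1 lower. Of 141 members tested, 22 in 21 clusters were called (15.6%), 21 higher and 1 lower. Over all 13772 tested sites 2.56% were called, 1.68% higher and 0.879% lower, and of the methylated dense sites 14 of 169 (8.28%), 11 of them lower. The median difference over the members was 3.11, against 0.03 over all sites. On uncorrected values 12 were called, 11 higher, and the mean difference over the members was 0.51 in place of 3.47 percentage points. Leaving out the 0P library of mouse 1805 gave 18 calls and a mean of 2.27.

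The second Crocc member was again the site without overlap, at 17.7% to 41.6% (median 29.4%) in 8P and 0.0% to 16.8% (median 14.6%) in 0P. The difference was 17.58 (SE 3.97, adjusted p = 0.631). Crmp1, a gene for a collapsin response mediator, had the largest difference, with 9.94% to 71.4% (median 28.7%) in 8P and 0.0% to 27.5% (median 9.23%) in 0P, a difference of 22.43 (SE 8.99, adjusted p = 0.721). Its groups overlapped, and the call was lost on uncorrected values (18.28) and without any of 4 single libraries. At Mir9-3hg the 0P libraries had 0.0% to 17.8% (median 3.85%), and the difference was 17.78 (SE 5.05). Grasp differed by 18.08 (SE 5.39), with 21.8% to 45.7% in 8P.

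The cluster at Gm42418 on chromosome 17 is a ribosomal RNA-like locus where each member had a median of over 1000 reads against 111 for the members as a whole, so its reads may come from many copies and its levels are uncertain. Of its 4 members 2 were called (17.13 and 10.61), and without this cluster 20 of 137 members were called. Kremen2, the gene of a receptor that dampens Wnt signaling, differed by 17.13, and Nsd1, which encodes a histone methyltransferase, by 20.09. Others were at Oaz1 (16.73), Ctu2 (15.62), Gm26550 (14.58), Klhdc8a (12.41), Gorasp2 (11.07), Syne2 (9.54), Zfp703 (7.89), Asic2 (7.25), Arhgap9 (7.07) and Stard10 (5.82), and near Nfe2l3 (17.16) and 4933402J07Rik (6.29). The site before Mpped1 was lower by 15.87 (difference −15.87). Of the 22 called members 13 were called whichever library was left out, all of them higher. Within 1 kb of a start 13 of 14 called members were higher (18.3% of 71 tested), and farther away all 8 (11.4% of 70). Over all tested sites 0.948% and 3.32% were called higher in these places. This comparison shares its libraries with the polyp and epithelium comparisons, so its calls are no separate evidence for theirs.

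**Figure D5:**
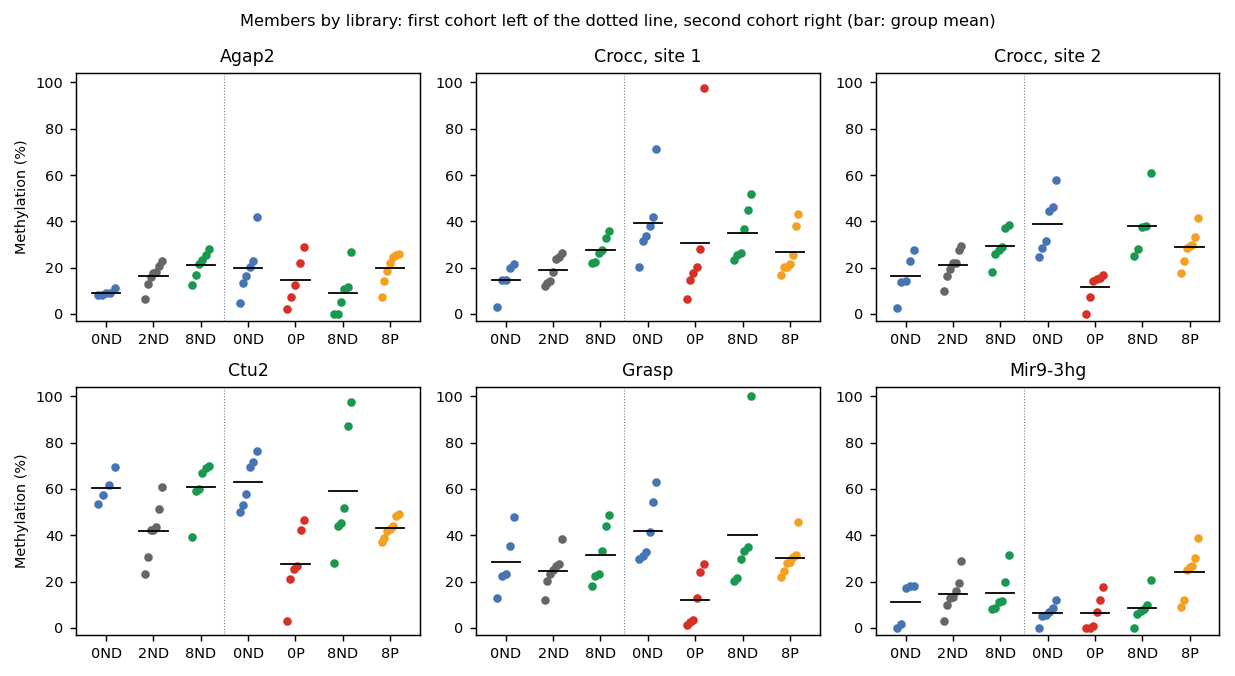
Methylation (%, y axis) of 6 members in every library with at least 20 reads, by group (x axis), with the first cohort left and the second right of the dotted line. Points are libraries and bars group means. The 0P points of Ctu2, Grasp and the second Crocc site all lay below the 0ND points of the same cohort, and the first-cohort 8ND points of Agap2 and the first Crocc site all lay above the 0ND points.

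In a test chosen after seeing the data, the change in polyps was also compared between the diets, as the difference of (8P − 8ND) and (0P − 0ND) at sites covered in all second-cohort libraries. Of 79 members, 4 were called (5.06%), all higher, where 2.05% of all 8232 such sites were called and 1.74% called higher, and of the methylated dense sites 1 of 88 (1.14%), which was lower. None had an adjusted p under 0.05 by this interaction test over all sites (smallest 0.702), and 4 had an unadjusted p under 0.05. The 4 members were at C1ql3, Gm26550, Mir9-3hg and Stard10. At Gm26550, for example, polyps differed from epithelium by 14.3 (SE 6.14) on 8 mg and by −4.61 (SE 3.8) on 0 mg.

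Genes known from folate metabolism, colon biology or imprinting were also looked up at the members. Of 20 genes of folate and methylation enzymes none had a member, of 40 imprinted genes only Gnas, of 19 stem cell and Wnt genes only Axin2, of 15 colon differentiation genes only Cdx1 and of 23 genes known for promoter methylation in colon tumors only Sept9. Peg12, which is imprinted too, was not on the list of imprinted genes. How many of the listed genes held a measured dense site at all was not counted, so these numbers have no background. Cdx1, the homeobox gene of intestinal identity, had 2 members in an intron. At the first, 8P had 10.6% to 36.6% (median 33.4%) and 0P 0.0% to 17.7% (median 10.6%), a difference of 18.73 (SE 5.62, adjusted p = 0.721), while the second differed by 5.08 (SE 6.2). Libraries had as few as 45 reads at the first site in these groups.

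Upstream of Axin2, the negative feedback gene of Wnt signaling, the member had 6.69% to 19.3% in 2ND and was called in none of the 5 comparisons, with differences from −2.53 to 4.29 percentage points. The 2 members of Sept9, a septin gene, had mean 2ND levels of 46.8% and 24.2% and could be tested in no comparison, since 3 to 6 libraries of each second-cohort group had 20 reads at the first. Gnas had 5 members in 2 clusters. Its 4 members of the cluster above were called in no comparison, and differences between 8P and 0P ran from −1.3 to 7.44, with SE of 7.91 to 13.7.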

How the data were processed

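DREAM libraries of LMD colonic cells were analyzed. The deposited files give, for each CCCGGG site, the count of methylated and unmethylated reads as the authors obtained them with Bowtie2 and SAMtools on mm9 (per the labels; versions are not given in the sources used here). They also give the raw percent methylation and an adjusted percent, which the authors corrected with the added standards, and each library had its own correction factor (0.992 to 4.04). The adjusted percent was used throughout.

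Groups were taken from the labels. A minimum of 20 reads was required in each library entering a comparison, and sites were compared with a two-sided equal-variance test and Benjamini-Hochberg adjustment over all tested sites (Python 3.11.15, scipy 1.17.1), checked on simulated data. With limma 3.58.1 and a quasi-binomial model the comparisons were repeated. Further alternatives were the coverage minimum (10 or 50), 3 libraries per group, raw or centered values, libraries set aside for their top 100 sites or standards, the mouse as a block, and each library left out. Setting aside the ribosomal RNA-like cluster, the test of the difference of changes and a placement by 5 sites were chosen after seeing the data. A cluster was a chain of listed sites at most 1000 bp apart, and it was placed in GRCm38 by the distances between its sites. No other build was used for coordinates in the report, which are mm9 except beside sequences.

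The members and the gene lists were chosen with earlier results of these data known. Clusters and sites named in the text were the 5 clusters with the most members (ties by the number of listed sites), per comparison the 2 clusters with the most members called in 1 direction (ties by mean size), the up to 3 called members of largest difference whose groups did not overlap, the 3 members with the lowest and the highest SD over the first cohort, the 3 sites on each side of the limits of 10% and 50%, and members within or up to 5000 bp before genes of the lists. Other called members were named after their values were seen.

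Same-numbered epithelium and polyp libraries come from the same mouse, per the labels. The deviations of the members from their group means correlated within mice with a mean r of 0.03 on 0 mg and 0.075 on 8 mg, against −0.005 and −0.015 between mice. Intervals from reads would cover counting error only, so the spread between libraries is given instead.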

Additional observations from a re-analysis of the deposited data

Results flagged for a closer look

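Among 53 sets of libraries checked, 4 had 1 library apart from the rest, where chance flags about 1 in 20 such sets (2.65 here). The mean over the members was 16.1% in 1 8ND library of the first cohort, against 22.7% to 26.2% in the other 5. It was also the library with the fewest reads at sites (1488920). The mean was 16.1% in the 8P library of mouse 1800, against 20.7% to 23.8% in the other 8P libraries, and that library had 11928642 reads at sites. The median over the Gnas cluster was 0.0% in the 0P library of mouse 1805, against 44.0% to 66.5% in the other 0P libraries. The median over the Gm26550 and Lypd3 cluster was 44.9% in the 0ND library of mouse 1805 in the second cohort, where the other 5 lay lower, from 5.43%.

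At 4 members the change in polyps differed between the diets by the interaction test at an unadjusted p under 0.05, and none after adjustment over all sites. This count is about what that threshold gives by chance over the members tested. Over all 8232 sites so tested 2.05% were called, and 1.74% were called higher. The change on 8 mg minus the change on 0 mg was 14.33 percentage points at C1ql3 (10.43 and −3.9), 18.9 at Gm26550 (14.3 and −4.61), 15.5 at Mir9-3hg (15.45 and −0.05) and 11.61 at Stard10 (1.74 and −9.87). At Stard10 the change on 0 mg was the larger of the pair.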

How the results depend on the processing

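The 64 calls, 1 for each called member and comparison, kept their direction in all 1496 values that the alternatives gave for them where they could still be tested. The alternatives reuse the libraries in which these calls were selected, so a reversal was unlikely from the start and the kept direction is no separate support. Of 225 alternative counts and means, 194 stayed within 1.5 times the count or 1 SD of the mean. At a coverage minimum of 50, the called members were 7 for 0P against 0ND, 8 for 8P against 8ND and 14 for 8P against 0P. With 3 libraries per group they were 28, 2, 20 and 24 for 8ND against 0ND in the first and second cohorts, 0P against 0ND and 8P against 8ND. The quasi-binomial model gave 39 for 8ND against 0ND in the first cohort, 13 of them shared with the 17 called, and 6 for 8P against 8ND. With the Benjamini-Hochberg adjusted p in the rule, 0 were called in each of the 5 comparisons. On raw percentages 12 were called for 8P against 0P and the mean difference was 0.51, and 2 for 8ND against 0ND in the second cohort. That last count, 1 as reported, was also 2 at a coverage minimum of 10, 6 without libraries of high top 100 share and 3 without libraries of high standards. Without libraries of high top 100 share, 20 were called for 8P against 8ND. With libraries set aside for top 100 share, 154 members passed the read minimum in place of 89 and 91. At a coverage minimum of 50 fewer members were tested. For the other moved counts the cause was not tested.

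Leaving out 1 library gave 12 to 23 called members for 8ND against 0ND in the first cohort and 0 to 7 in the second, 8 to 15 for 0P against 0ND, 5 to 24 for 8P against 8ND and 17 to 27 for 8P against 0P. The mean differences over the members ran from −0.67 to 1.58, −1.89 to 0.52, −2.63 to −0.49, 1.81 to 4.0 and 2.27 to 4.39 in the same order, so the sign of the first pair was not stable. With the replicate block (the mouse), 14 members were called for 0P against 0ND and 11 for 8P against 8ND, with mean differences of −1.73 and 2.46, and the calls lost among the named sites were those given for Sema6b and Mir9-3hg. The block was not run for 8ND against 0ND or 8P against 0P, whose groups share no mouse. With the lesions of mouse 1856 averaged, all 7 calls checked at named sites in the comparisons with 8P were kept. The exclusion of libraries with 30% or more of reads on standards could not be run for 0P against 0ND and 8P against 0P, as fewer than 2 polyp libraries on 0 mg were left. Depth limits the tests, as 89 to 141 of the 252 members had 20 reads in every library of a comparison.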
